A study of Mus musculus with 6 samples.

Results

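Adipokines and adipocyte lipid droplet genes were followed through the livers, ovaries and uteri of immature female mice given fluorene-9-bisphenol (BHPF), a substitute for bisphenol A. The set holds 10 of the 20284 genes named on the arrays, read by 12 of 55681 probes: Adipoq, Cfd, Lep, Retn, Plin1, Cidec, Cidea, Lipe, Fabp4 and Car3. It was chosen by the values of Adipoq and Cfd on these same arrays, which were higher in ovary and lower in uterus with BHPF, and the other fat genes were added to see which of them follow. The ovary and uterus ratios of Adipoq and Cfd are therefore given as a description and not as a test.

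The animals were CD-1 mice labelled as 24 days old. One side received BHPF at 50 mg per kg of body weight each day in peanut oil by gavage for 3 days, and the control side received peanut oil alone. The sources differ on whether day 24 was the first day of dosing or the day of killing. Each of the 6 groups, control and BHPF for liver, ovary and uterus, was 1 pool of RNA from 3 mice on 1 single-colour Agilent array, so the spread between animals was not measured and no comparison carries a p-value. All arrays lay on 1 slide and were scanned together, the controls in the first positions and the BHPF pools after them, so treatment and position on the slide cannot be told apart.

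White adipocytes store triglyceride in 1 large droplet, whose surface proteins decide when lipases reach the fat. The same cells secrete adipokines, hormones that report on the energy store to liver, muscle, brain and the reproductive organs. Liver, ovary and uterus are not fat depots, but fat pads surround the ovary and run along the uterine horns, and macrophages, endothelium and steroid-making cells express some of these genes as well. In whole-tissue RNA, fewer cells of a type and less RNA per cell cannot be told apart.

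A level below is the log2 intensity of a probe minus the 75th percentile of its array, so that 0 is a bright probe and each step of 1 is a doubling. A log2 ratio is the BHPF level minus the control level. Spots of 1 probe on 1 array differed enough to give a log2 ratio an SD of 0.14 (from 307 to 337 probes per array), which covers spot noise only and not the mice. Between 61.3% and 74.5% of probes were well above background per array, and the lowest level that was so lay between −6.33 and −4.91. A gene was evaluated in a tissue when at least 1 of the 2 arrays was well above background, and it was called at 2-fold.

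Adipoq encodes adiponectin, the most abundant hormone of fat, which raises insulin sensitivity. Its intensity was 609 on the control ovary array and 1324 on the BHPF ovary array, and 2311 on the control uterus array against 198 on the BHPF uterus array. As levels these were −3.62 and −2.27 in ovary, and −1.21 and −4.52 in uterus. Adipoq was thus 2.55-fold higher with BHPF in ovary (log2 ratio 1.35) and 9.91-fold lower in uterus (log2 ratio −3.31). The uterus direction follows the conditions under which the scanner files were deposited. In the authors' own table of log2 values the pair of uterus columns held each other's array, and taken as headed that table turns every uterus ratio given here. In liver Adipoq was brighter than in either reproductive organ, at 0.35 in control and 0.21 with BHPF, and the log2 ratio was −0.15.

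Cfd encodes adipsin, the complement factor D that fat secretes and that starts the alternative pathway. Its intensity in ovary was 1215 with oil and 4278 with BHPF, and in uterus 6206 with oil and 807 with BHPF. The levels were −2.63 and −0.58 in ovary, 0.22 and −2.49 in uterus, and −2.77 and −4.41 in liver. Cfd was 4.13-fold higher in ovary (log2 ratio 2.05), 6.53-fold lower in uterus (−2.71) and 3.10-fold lower in liver (−1.63). The liver ratio rests on a dim BHPF value, an intensity of 155 where the lowest well above background was 110. With another background correction it was −1.03. By the scanner labels the uterus held more Cfd and more Adipoq than the ovary with oil alone, and less of both with BHPF. With the uterus arrays exchanged, as the authors' table heads them, the oil-treated uterus would stand 0.14 above the ovary for Cfd, within 2 SDs of spot noise, and −0.89 from it for Adipoq, so that this turn rests on the labels.

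The upstream sequence of the pair is shown because they went the same way in both organs. RefSeq promoters on GRCm38.p6 were found for 7 of the 10 genes in 9 windows, and the 250 bases before the start were searched on both strands for the CCAAT box (CCAAT, in 33.8% of 32851 promoters of that length), the TATA box (TATAAA, 12.4%) and the C/EBP element of adipocyte genes (TTGCNNAA, 9.56%). The Adipoq window, chr16:23146286-23146535 on the plus strand, held 3 CCAAT boxes and neither of the others. They are in capitals, and their first bases lie 34, 27 and 7 bases before the start, the first pair on the minus strand.
Adipoq: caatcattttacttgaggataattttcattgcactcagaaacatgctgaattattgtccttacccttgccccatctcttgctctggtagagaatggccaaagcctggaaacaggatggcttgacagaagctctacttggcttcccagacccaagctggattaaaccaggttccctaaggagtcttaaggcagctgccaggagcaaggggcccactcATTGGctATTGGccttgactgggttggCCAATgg
Cfd: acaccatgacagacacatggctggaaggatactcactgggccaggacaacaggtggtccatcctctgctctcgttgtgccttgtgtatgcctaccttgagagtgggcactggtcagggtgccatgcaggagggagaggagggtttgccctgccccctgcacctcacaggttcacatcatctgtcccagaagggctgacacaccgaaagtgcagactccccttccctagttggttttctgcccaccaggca
The Cfd window, chr10:79890603-79890852 on the plus strand, held none of the 3 motifs, so it carries no capitals. C/EBP letters stood in the windows of Lep (1 match), Plin1 (2 matches) and 1 of the 2 Cidec windows (1 match). These matches describe the letters in the window and nothing about binding.

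Lep encodes leptin, the satiety hormone by which fat signals the size of its store. It was not well above background on any of the 6 arrays, with levels between −8.47 and −6.94 over 10 spots per array, and no ratio was taken. Retn encodes resistin, which mouse adipocytes secrete and which opposes insulin, and 2 probes of 1 transcript read it. The dimmer probe stood at −4.33 and −3.39 in ovary, −2.96 and −3.84 in uterus and −4.60 and −4.11 in liver, control first. The brighter probe stood at −0.63 and −0.60 in ovary, −0.07 and −0.47 in uterus and −0.95 and −0.60 in liver. Both had the signs of Adipoq, positive in ovary and negative in uterus, but the sizes disagreed: the log2 ratios were 0.93 and 0.03 in ovary and −0.88 and −0.40 in uterus. Their mean gave Retn 0.48 in ovary, −0.64 in uterus and 0.42 in liver, all below 2-fold.

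**Figure D1:**
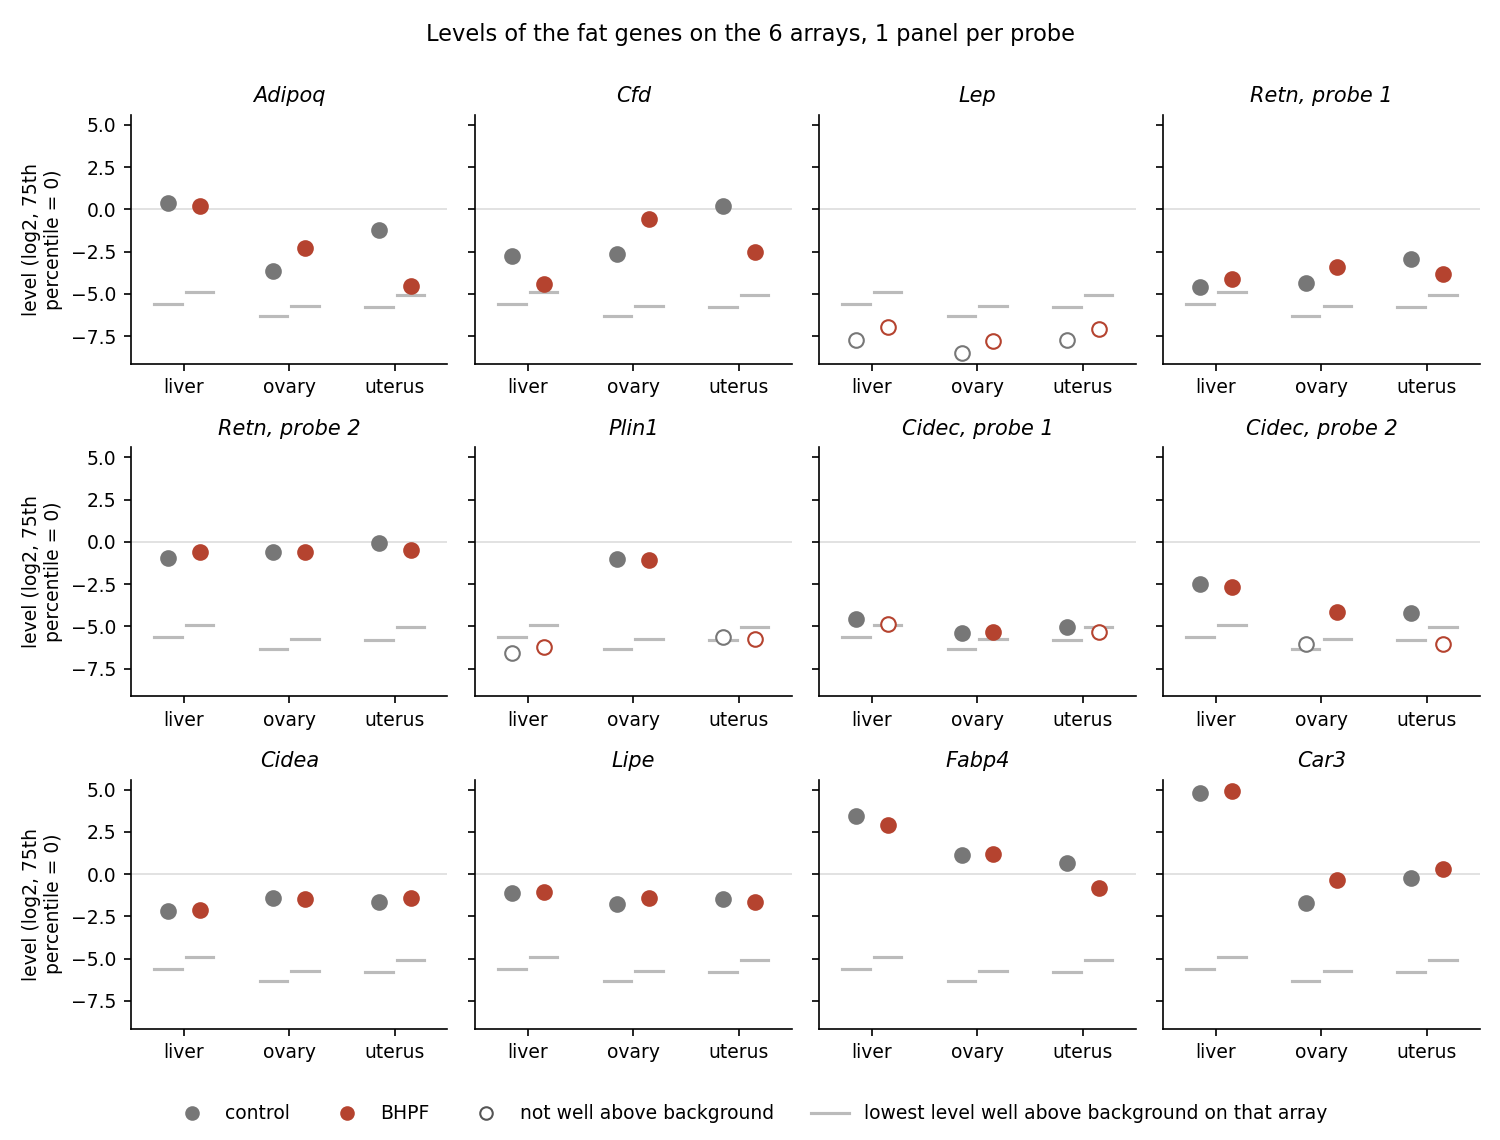
Level of each probe (y axis, log2 intensity with the 75th percentile of the array at 0) in liver, ovary and uterus, with 1 point per array, grey for control and red for BHPF. Open points were not well above background and short grey lines mark the lowest level that was so on that array. Adipoq and Cfd step up in ovary and down in uterus, Lep lies under the line on all 6 arrays, and the Plin1 points are filled in ovary only.

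Plin1 encodes perilipin, the coat protein of the adipocyte droplet that holds back lipolysis until it is phosphorylated. It was well above background in ovary only, at −1.005 in control and −1.08 with BHPF, a log2 ratio of −0.07. In liver it stood at −6.60 and −6.25 and in uterus at −5.61 and −5.74, not well above background on any of these 4 arrays. On the control uterus array its intensity was 109, while the lowest intensity well above background there was 95.6, so that call was a borderline one. The part of fat cells in these values was not tested.

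Cidec (FSP27) and Cidea sit on the droplet surface and pass lipid between droplets so that they grow. Cidec was dim and its 2 probes disagreed. The first was at −5.38 and −5.32 in ovary, a log2 ratio of 0.06. The second was not well above background in control ovary (−6.02) and reached −4.17 with BHPF, 3.61-fold above that dim reading. In uterus that second probe stood at −4.20 with oil and sank below the well-above-background call on the treated array, at least 1.82-fold lower, and the first probe was at least 1.03-fold lower. For the mean of both probes, a dim value was taken at its bound or its own level, whichever was higher. That mean was 0.96 in ovary, just under the 2-fold line, −0.45 in uterus and −0.25 in liver. Cidea lay at −1.38 and −1.49 in ovary, −1.64 and −1.38 in uterus and −2.20 and −2.10 in liver. Its log2 ratios of −0.11, 0.25 and 0.10 ran the other way from Adipoq in both reproductive organs, and the 3 of them were small.

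Lipe encodes hormone-sensitive lipase, which cuts diglyceride in the stimulated fat cell and releases cholesterol from its esters in steroid-making cells. It lay at −1.75 and −1.40 in ovary, −1.49 and −1.63 in uterus and −1.14 and −1.08 in liver. The log2 ratios were 0.34, −0.14 and 0.06. Lipe thus had the signs of Adipoq at a small size.

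Fabp4 encodes the fatty acid carrier aP2 of adipocytes, which macrophages and endothelium also make. It lay at 0.66 in control uterus and −0.80 with BHPF, 2.75-fold lower (log2 ratio −1.46). In ovary it stood at 1.15 and 1.19, a log2 ratio of 0.04, and in liver at 3.43 and 2.94, a log2 ratio of −0.49. Fabp4 went with Adipoq and Cfd in uterus but not in ovary. In uterus the lowest log2 ratio among 4 macrophage markers was −0.33 and among 5 endothelial markers −0.21, and the part of these cells in the Fabp4 value was not tested.

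Car3 encodes carbonic anhydrase III, abundant in fat, liver and slow muscle. It went from −1.73 to −0.37 in ovary, 2.56-fold higher (log2 ratio 1.36), and from −0.20 to 0.33 in uterus, a log2 ratio of 0.54. In liver, where it was the brightest of the 10 genes, it stood at 4.82 and 4.93. Car3 joined Adipoq and Cfd in ovary but not in uterus, so Fabp4 and Car3 each shared 1 organ with them.

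**Figure D2:**
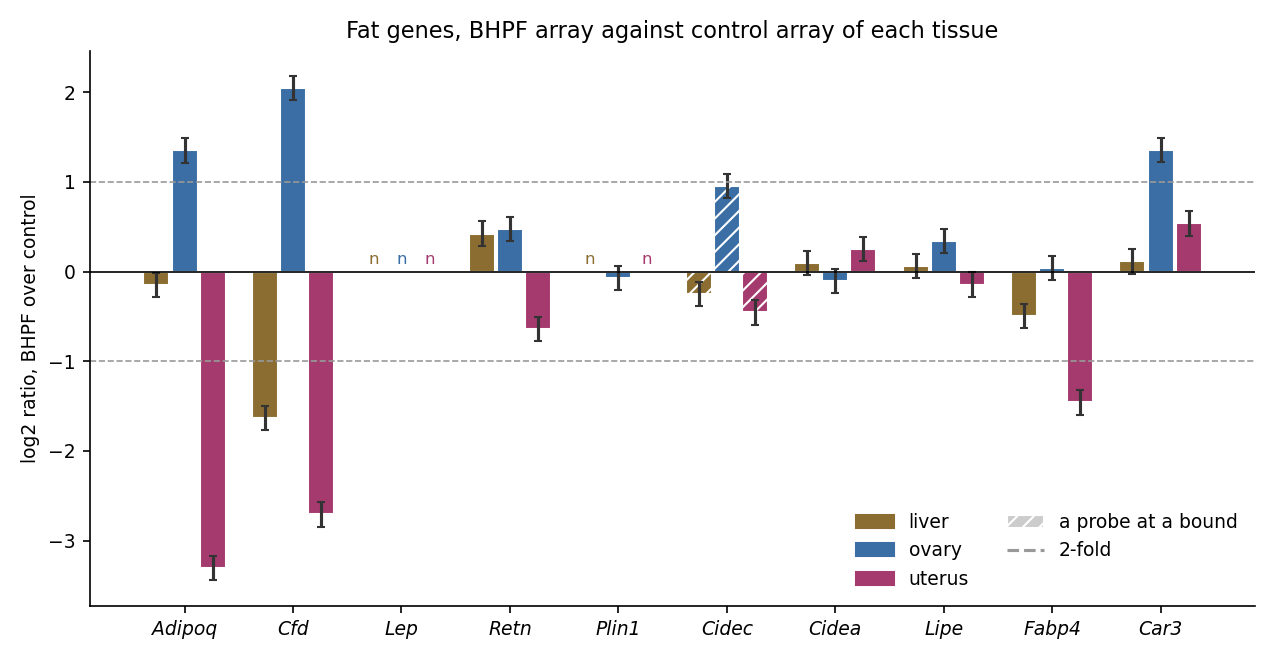
Log2 ratio of BHPF over control (y axis) for each gene in liver, ovary and uterus, with probes of a gene averaged. Bars are 1 array against 1 array, whiskers are the SD of 0.14 from spot noise, hatching marks a gene with a probe at a bound, n marks a gene not well above background on either array, and dashed lines are 2-fold. Adipoq and Cfd are the only members past both dashed lines.

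Counted over the set, 3 of the 9 genes evaluated in ovary were at least 2-fold higher, Adipoq, Cfd and Car3, and none was 2-fold lower. Of all 16863 genes evaluated there 0.474% were 2-fold higher and 0.617% lower. In uterus 3 of 8 were at least 2-fold lower, Adipoq, Cfd and Fabp4, and none was higher, where 0.823% of 16161 genes were lower and 2.27% higher. In liver 1 of 8, Cfd, was lower, where 1.54% of 15530 genes were lower and 3.2% higher. Since Adipoq and Cfd defined the choice, nothing is read from these shares. Without that pair, 1 of 7 genes was 2-fold higher in ovary (median log2 ratio 0.34) and 1 of 6 was lower in uterus (median −0.30), where the medians of all genes were 0.01 and 0.00.

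Placed among all genes, Cfd had the rank 9 from the highest ratio in ovary, Car3 the rank 40, Adipoq 41 and Cidec 85. From the lowest ratio in uterus Adipoq had the rank 6, Cfd 13 and Fabp4 56. The ranks of Adipoq and Cfd describe the values by which they were chosen. Of 15732 genes evaluated in both organs, 3 (0.0191%) were at least 2-fold higher in ovary and at least 2-fold lower in uterus. They were Adipoq, Cfd and Fam184b, the last with an ovary ratio of at least 1.08 that rests on a dim control array and a uterus ratio of −1.97. The reverse, lower in ovary and higher in uterus, held for 2 genes (0.0127%). By sign alone, 6 of the 8 members evaluated in both organs were above 0 in ovary and below 0 in uterus, namely Adipoq, Cfd, Retn, Cidec, Fabp4 and Lipe. That sign pattern held for 25.4% of all genes and for 23 of 65 other fat genes, and 4 of these 6 members were within 2-fold in at least 1 organ. Adipoq and Cfd were chosen by that pattern, so nothing is read from the count of members. With another background correction Fabp4 in ovary was at −0.20 and Lipe in uterus at 0.06, so each changed sign. With the uterus arrays exchanged, Adipoq, Cfd and Fabp4 would take the same ranks from the highest ratio in uterus, 6 members would be above 0 in both organs, and 5 genes (0.0318%), none of them a member, would be 2-fold higher in ovary and lower in uterus. The sign pattern would then hold for 26.8% of all genes, 1 of 8 members (Car3) and 15 of 65 other fat genes.

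**Figure D3:**
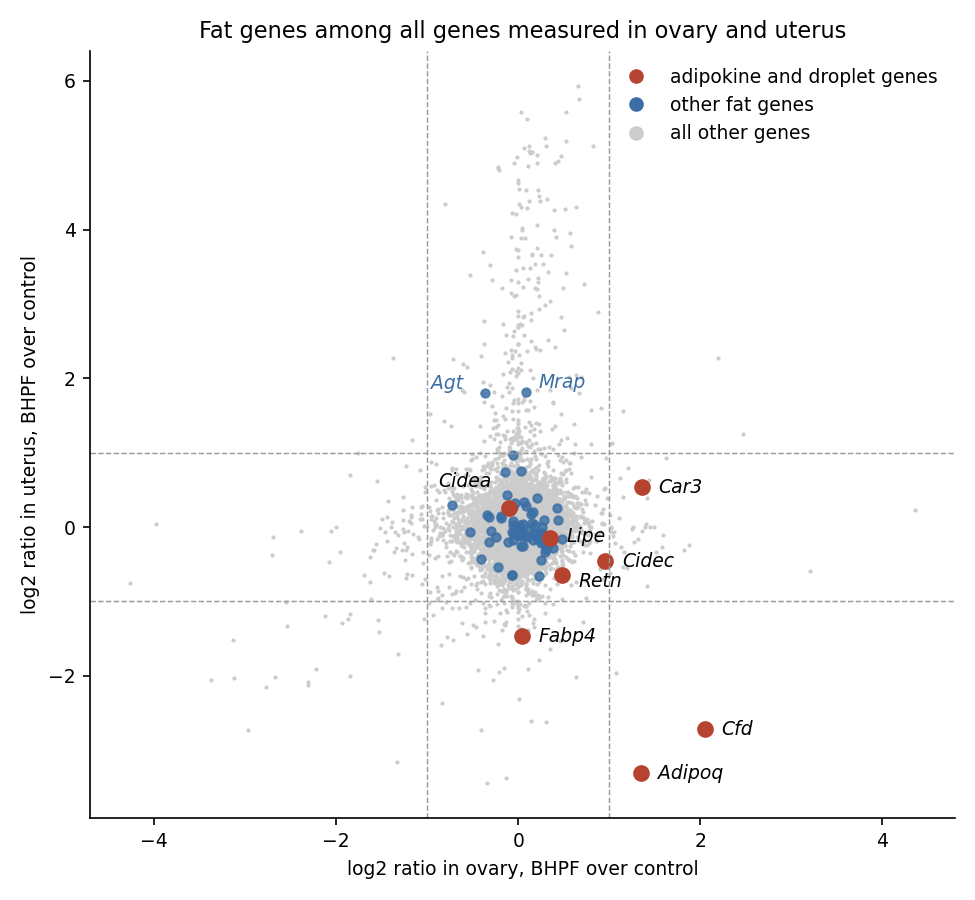
Log2 ratio of BHPF over control in ovary (x axis) against uterus (y axis) for every gene evaluated in both, with the members in red, other fat genes in blue and the rest in grey. Dashed lines are 2-fold. Adipoq and Cfd lie in the lower right with Fam184b just inside that corner, most other fat genes lie inside the square, and Agt and Mrap lie in the band of genes that are higher in uterus only.

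By the distance between pairs of ovary and uterus ratios, over 13629 genes well above background on the 4 arrays, Cfd was the nearest gene to Adipoq (distance 0.92), Fabp4 had the rank 12 (2.27), Retn 73 and Lipe 1506, while Car3 and Cidea were at 12060 and 12090. Adipoq and Cfd were chosen together by these same ratios, so the place of Cfd is a description only. The 10 nearest genes outside the set were Myh7, Krt84, Parp11, Fam3b, Ptpn5, Sprr1a, Slc22a7, Ttc34, Gpr89 and Gins2. They stood between −0.28 and 0.35 in ovary and between −3.37 and −1.45 in uterus, so they resembled Adipoq through the uterus alone. None of the 10 is on the lists of fat genes used here.

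The other genes of the fat cell did not reach 2-fold in the directions of Adipoq and Cfd in either organ. The 73 genes of 5 lists covered other adipokines, other droplet and lipolysis genes, lipid uptake and synthesis, adipocyte identity and brown fat. In ovary 68 were evaluated and none was 2-fold higher or lower, with a median log2 ratio of 0.04 and a range from −0.73 for Acvr1c to 0.48 for Kcnk3. In uterus 68 were evaluated, 2 were 2-fold higher and none was 2-fold lower, and the median was −0.06. The lowest there were Dio2 and Lpl, both at −0.65. In liver none of 63 was 2-fold higher or lower. Of all genes, 0.474% were 2-fold higher and 0.617% lower in ovary, and 2.27% were higher and 0.823% lower in uterus. In liver 3.2% were higher and 1.54% lower. At such shares few or none of so many genes would be called. Nothing particular to fat genes is read from these counts.

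From each list the 3 genes with the highest mean level over the 6 arrays are given. That mean pools the tissues and sets different probes side by side, so it only picks the genes and does not rank their expression, and other genes stood higher in single tissues. Among other adipokines they were Rarres2 (chemerin), Angptl4 and Nampt. Rarres2 had log2 ratios of 0.14 in ovary and 0.18 in uterus, and Angptl4, an inhibitor of lipoprotein lipase, 0.03 and −0.26. Nampt had −0.34 and 0.16. From the droplet and lipolysis list they were Pnpla2, Plin3 and Plin2. Pnpla2, the lipase that acts before hormone-sensitive lipase, had 0.01 and 0.03, Plin3 −0.32 and 0.13, and Plin2 0.05 and −0.25.

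Lipid uptake and synthesis was represented by Thrsp (0.43 in ovary, 0.10 in uterus), Fabp5 (0.21 and −0.16) and Elovl6 (0.02 and −0.12). In this list 15 of 23 genes were above 0 in ovary and 15 of 22 below 0 in uterus, all within 2-fold. Of all genes 51.6% were above 0 in ovary and 48.1% below 0 in uterus. The adipocyte identity list gave Pde3b (0.18 and −0.09), Klf15 (−0.06 and 0.27) and Mrap (0.08 and 1.81). Of the genes named after their values were seen, Pparg, the factor that drives fat cell formation, had 0.25 and −0.21, and Plin4, another coat protein of the adipocyte droplet, −0.23 and −0.54. The brown fat list gave Cox7a1 (−0.30 and −0.05), Dio2 (0.23 and −0.65) and Ppargc1a (−0.19 with a probe at its bound, and 0.12), and Ucp1, the uncoupling protein that defines brown fat, was not well above background on any array.

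**Figure D4:**
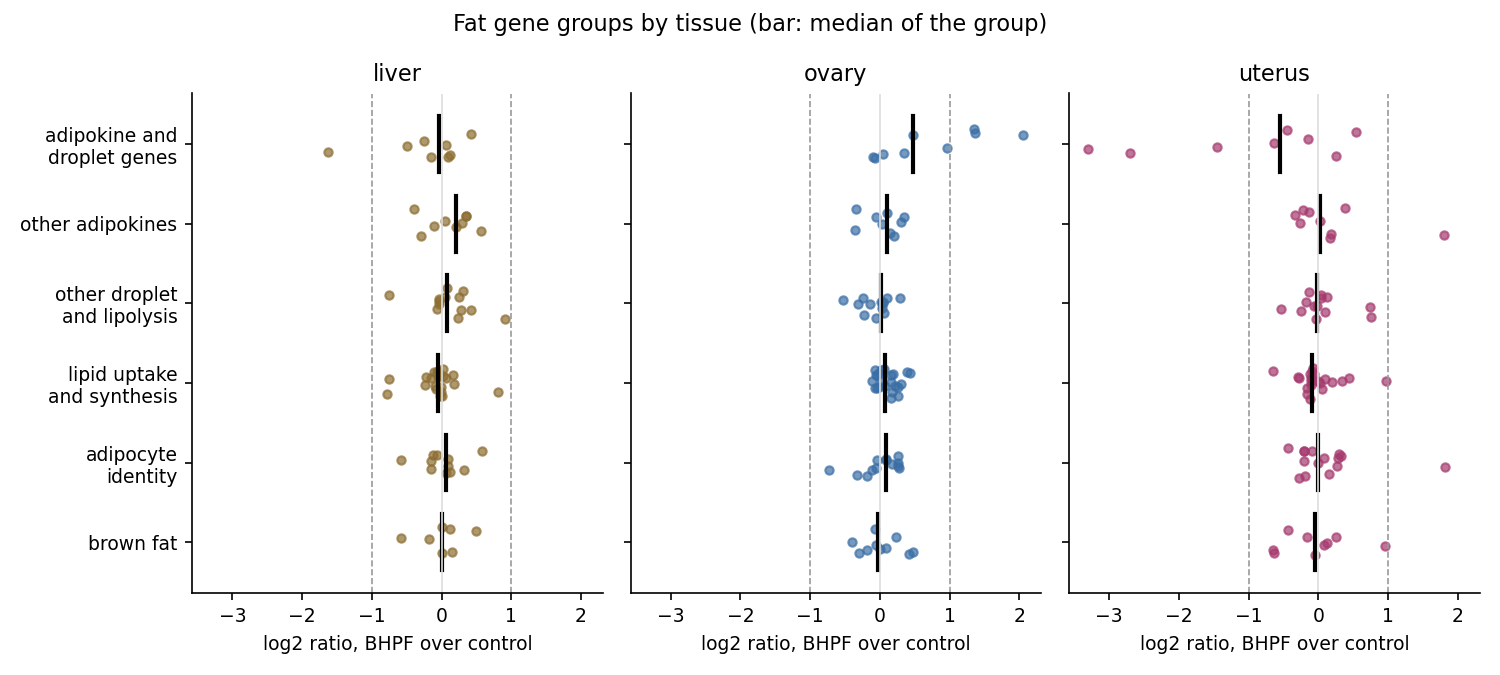
Log2 ratio of BHPF over control (x axis) of the members and of the 5 lists of other fat genes in each tissue, with 1 point per gene, a black bar at the median of the group and dashed lines at 2-fold. The members spread widest in each tissue. Their highest point in ovary, Cfd, and lowest in uterus, Adipoq, are the genes by which the set was chosen. Outside the members only Agt and Mrap in uterus pass a dashed line.

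Agt and Mrap were 3.48-fold and 3.51-fold higher in uterus with BHPF (log2 ratios 1.80 and 1.81). They were 2 of the 68 other fat genes evaluated there, where 2.27% of all genes were 2-fold higher. Nothing particular to fat genes is read from that count. Agt encodes angiotensinogen and Mrap the accessory protein of the corticotropin receptor. Both were dim in control uterus, at −4.71 and −4.59, and bright in control liver, at 4.22 and 4.06. All 8 hepatocyte markers were at least 2-fold higher on the BHPF uterus array, with a median log2 ratio of 4.41, and their summed linear level went from 1.71 to 30.6 against 300.4 on the control liver array. Over 466 liver-specific probes the excess on the BHPF uterus array was a median of 0.657% of the control liver intensity, and 0.0229% on the BHPF ovary array. The source of this excess was not tested. With 1 array per group, liver RNA on the array and a rise of these genes in uterus cannot be told apart. Liver carries Adipoq, Fabp4 and Car3, so that share of the liver level was subtracted from the BHPF uterus array as a calculation only. The log2 ratio of Adipoq then went from −3.31 to −3.62, Fabp4 from −1.46 to −1.65 and Car3 from 0.54 to 0.31. Taking a positive amount off the BHPF array can only lower a ratio, so nothing is read from the direction of these shifts. The excess also differed between liver-specific probes, with quartiles of 0.341% and 1.30%, so 1 share need not hold for each gene. Each of the 8 hepatocyte markers rose by a larger part of its control liver level than the upper quartile. The subtracted ratios hold for the 0.657% share only, and a larger share would move them further.

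Markers of other cells gave these values beside the ovary and uterus results. None of 7 fat stroma markers, 6 mesothelial markers, 5 endothelial markers or the evaluated skeletal muscle markers (4 in ovary, 5 in uterus) was 2-fold higher or lower in either organ. Of all genes 0.474% were higher and 0.617% lower in ovary, and 2.27% and 0.823% in uterus. At such shares few or none of these markers would be called, so nothing is read from that count. Off the muscle list, Myh7, a myosin of heart and slow muscle, had a uterus log2 ratio of −2.61 and Actc1, the cardiac actin, −1.23. Of the list, Tnnt3 had −0.76, Acta1 −0.02, Actn3 0.01, Pvalb 0.36 and Ckm 0.00 at its bound. The median of the list in uterus was 0.00. In ovary Myh7, Actc1 and Tnnt3 had 0.31, 0.00 and −0.01. Myh7 was named because its ratios were near those of Adipoq, and Actc1 and Tnnt3 after their values were seen. The summed linear level of the fat stroma markers was 17.3 in control ovary and 17.5 with BHPF, and 40.0 and 44.8 in uterus. That of the muscle markers was 2.08 and 1.997 in ovary, and 7.38 and 6.64 in uterus. In ovary all 8 hepatocyte markers were above 0, with a median of 0.34 and none at 2-fold, where 51.6% of all genes were above 0. Adgre1 of 4 macrophage markers (−1.20), Cd79b of 3 B cell markers (−1.18) and the cilia gene Foxj1 of 2 oviduct markers (−1.16) were at least 2-fold lower in BHPF ovary. The summed levels there went from 10.7 to 6.89 for macrophages, 0.731 to 0.372 for B cells and 0.673 to 0.385 for oviduct. In uterus the summed level of the oviduct markers went from 3.57 to 2.63. The part of any of these in the member values was not tested, and the tissue surrounding the organs at dissection was not given in the sources used here.

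The labelled organs carried their own markers. The summed linear level of 6 ovary markers was 40.1 and 42.2 on the ovary arrays and 2.91 on the control uterus array, and that of 5 uterus markers was 15.5 and 15.4 on the uterus arrays and 1.79 on the control ovary array.

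The receptors of these hormones stood within 2-fold in all 3 tissues, as most genes did. Adipor1 and Adipor2 receive adiponectin and had log2 ratios of −0.19 and 0.07 in ovary and 0.14 and 0.21 in uterus. Cdh13, which binds its large forms, had 0.01 in ovary and 0.22 in uterus. The leptin receptor gene Lepr had −0.03 and 0.38, and Cap1, which binds resistin, 0.04 and 0.42. All 5 were above 0 in uterus, between 0.14 and 0.42, and in liver, between 0.03 and 0.56. Of all genes 50.0% were above 0 in uterus and 49.7% in liver. Adipor1 in uterus and Adipor2 in liver did not exceed the SD of spot noise. Of the relatives of resistin, Retnlg was 4.24-fold lower in ovary (log2 ratio −2.08) and 5.19-fold lower in liver (−2.38), with −0.47 in uterus, and Retnla had 0.30 in ovary and −0.34 in uterus. Retnlg is made by neutrophils and bone marrow rather than by fat, and it did not have the ovary direction of Retn.

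On the control arrays the tissues took different orders for different members, each read within its own probe. Adipoq ran liver, uterus, ovary with steps of 1.56 and 2.42 on the log2 scale. Car3 ran in the same order with steps of 5.02 and 1.52, as did both Cidec probes, whereas Fabp4 ran liver, ovary, uterus with steps of 2.28 and 0.49. Cfd was highest in uterus by 2.84, and its ovary and liver levels lay 0.15 apart, within 2 SDs of spot noise. Retn was highest in uterus by both probes. Plin1 was highest in ovary, where it stood 4.60 above uterus, and Cidea in ovary and uterus, 0.26 apart and within 2 SDs of spot noise. Lipe was highest in liver by 0.35, with uterus and ovary 0.26 apart and likewise within 2 SDs. The members that stand for the fat cell thus had no common order of tissues, and the places of Adipoq and Cfd in uterus against ovary depend on the scanner labels, as given above.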

How the data were processed

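RNA pools were labelled with Cy3. The scanner files hold the intensity of each spot that the authors extracted and deposited, background-subtracted, linear and without any scaling between arrays. The labels name Agilent Feature Extraction 9.1 and the file headers 11.5.1.1. The log2 table that the authors deposited was made in GeneSpring GX 11. Each of its columns equalled the log2 intensity of 1 array minus a constant (100.0% of probe means within 0.001), the uterus columns that of each other's array. It served as an alternative.

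Control spots and spots marked as outliers were dropped, a probe's spots were averaged as log2 intensities, and each array's 75th percentile (55681 probes) was subtracted. A probe well above background on 1 array only was set against the higher of the lowest level well above background and its own value on the other, which gives a bound. Accessions were matched to RefSeq GRCm38.p6 symbols (26762 probes) and probes of 1 gene were averaged. Coordinates of the array design, another build, were not used. Liver-specific probes were at least 64-fold brighter in control liver than in the other control organs.

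The genes and lists were chosen with earlier results of these data known. All members are named, with the fat genes called in ovary or uterus, the 3 brightest of each fat list, the 10 genes nearest to Adipoq and the markers called. Lists were described by counts and medians, with no test, since each group had 1 array. Alternatives covered background correction (normexp, offset 50, limma 3.58.1, R 4.3.3), scaling, dim probes, threshold, probe choice and the liver part. The ratio code (pandas 2.3.3, numpy 2.4.6) was tested on simulated data. The precision is limited by the number of arrays.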

Additional observations from a re-analysis of the deposited data

Results flagged for a closer look

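Adipoq stood in opposite directions in the reproductive organs, with a log2 ratio of 1.35 in ovary and −3.31 in uterus, both past 2-fold. Cfd did likewise, with 2.05 in ovary and −2.71 in uterus, and its liver value of −1.63 was also opposite to that in ovary. Each value is 1 array against 1 array, the difference between organs was not tested, and the ovary and uterus values are those by which the genes were chosen.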

How the results depend on the processing

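Adipoq lay between 1.11 and 1.35 in ovary and between −3.79 and −2.52 in uterus over the alternatives, apart from the authors' table as headed, and Cfd between 2.03 and 2.08 and between −2.95 and −2.40. In liver Cfd lay between −1.95 and −1.03. Fabp4 lay between −1.75 and −1.44 in uterus and Car3 between 1.25 and 1.39 in ovary, whereas Cidec in ovary ran from 0.06 (well above background on both arrays) to 1.85 (brightest probe). Small ratios of Cidea, Lipe, Car3 in liver and Fabp4 in ovary changed sign with the background correction or the scaling. With the authors' table as headed, the uterus ratios of Adipoq, Cfd and Fabp4 were 3.31, 2.71 and 1.46, 3 members were 2-fold higher and 0 lower with a median of 0.55, 0 other fat genes were higher and 2 lower, and 5 genes, none of them a member, were higher in ovary and lower in uterus, which follows from the exchanged columns. With the 50th percentile the liver medians were −0.36 for the members and −0.31 for other fat genes, of which 3 were 2-fold lower. Quantile normalization gave 1 such gene in liver. With own values in place of bounds the uterus median of the members was −0.85, 1 other fat gene was lower there, and 6 genes were higher in ovary and lower in uterus. With no filter on dim probes those numbers were −0.39, 2 and 10, and 4 other fat genes were higher in uterus and 3 in liver. The ovary median of the members was 0.34 both with the brightest probe of a gene and with probes well above background on both arrays. At 4-fold 0 members were lower in liver, 1 was higher in ovary, 0 other fat genes were higher in uterus and 1 gene, Cfd, kept the opposite pattern. Adipoq and Cfd were among the genes of that pattern under each setting at 2-fold other than the authors' table as headed, and Fam184b was lost with normexp and with both arrays well above background. The median spot signal as input to normexp and the liver share over the probes brightest in control liver (level 3 or more) were chosen after seeing the data. No paired analysis was possible because each group had 1 array. The causes of the other shifts were not tested.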
